A study of Mus musculus with 16 samples.

Results

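The macrophage inflammatory protein chemokines and their receptor Ccr1 were followed in the footpads of mice from the AIRmax and AIRmin lines, which were bred for maximal and minimal acute inflammation. The members are 7 genes chosen by symbol, namely the ligands Ccl3, Ccl4, Ccl5, Ccl6 and Ccl9, the receptor Ccr1 and the chemokine receptor-like gene Ccrl2. All 7 of 7 were found among the 19938 mouse genes that the Affymetrix Mouse Gene 1.0 ST array measured with a probe set naming 1 gene. Each member had 1 probe set, no filter on low values was applied, and 0 probe sets that name several genes listed a member.

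RNA came from whole footpads of 16 outbred mice, listed as aged 2 to 4 months, with 1 array per mouse and 4 arrays per group. The groups were AIRmax control (arrays 105 to 108), AIRmax pristane (109 to 112), AIRmin control (113 to 116) and AIRmin pristane (117 to 120). Each group held 2 males, on its lower array numbers, and 2 females. Pristane is a mineral oil that induces arthritis in mice after repeated intraperitoneal injection. Control footpads were taken on day 0 and pristane footpads on day 160 after the second injection. The listed age therefore cannot be the age at sampling of the pristane mice. Treatment, time and age cannot be told apart. The array numbers of a group are consecutive, and array order and group cannot be told apart either. Both lines are selected outbred stocks rather than inbred strains, and a line difference is a difference between all loci at which the stocks differ.

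CC chemokines are small secreted proteins that bind heparan sulphate on vessel walls and matrix and direct leukocytes through G protein-coupled receptors. Ccl3 and Ccl4, the macrophage inflammatory proteins 1 alpha and 1 beta, are made by activated macrophages and other leukocytes. Ccl3 and Ccl5 activate Ccr1, and Ccl6 and Ccl9 are rodent CC chemokines of myeloid cells that also act through it. Ccr1 is carried by monocytes, neutrophils and osteoclast precursors and is studied as a receptor of arthritic joints. Ccrl2 is an atypical receptor that binds the chemoattractant chemerin without signalling and presents it to neighbouring cells.

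The 5 ligand genes are neighbours. In the RefSeq annotation of the mouse genome, Ccl5, Ccl9, Ccl6, Ccl3 and Ccl4 stand in that order as 5 consecutive protein-coding genes on chromosome 11. The annotated span of Ccl4 overlaps that of Ccl3, and which probes lie in the shared stretch was not known here. RefSeq promoter sequences (250 bases before to 50 after the start, build GRCm38.p6) were at hand for 5 of the 7 genes, Ccl3, Ccl6, Ccl9, Ccr1 and Ccrl2. For Ccrl2, with 3 starts listed, only the promoter of the first listed start was used. The promoters of Ccl6 and Ccl9 are shown because these adjacent ligands had closely similar profiles over the arrays. Both lie on the minus strand and are printed 5′ to 3′, and the capitals mark the longest run of bases that they share.
Ccl6, chr11:83593038-83593337: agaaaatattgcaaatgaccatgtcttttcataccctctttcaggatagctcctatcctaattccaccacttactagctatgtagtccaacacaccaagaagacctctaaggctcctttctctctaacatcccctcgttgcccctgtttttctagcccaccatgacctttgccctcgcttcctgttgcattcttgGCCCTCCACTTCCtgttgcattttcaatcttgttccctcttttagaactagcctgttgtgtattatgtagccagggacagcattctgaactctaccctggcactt
Ccl9, chr11:83578587-83578886: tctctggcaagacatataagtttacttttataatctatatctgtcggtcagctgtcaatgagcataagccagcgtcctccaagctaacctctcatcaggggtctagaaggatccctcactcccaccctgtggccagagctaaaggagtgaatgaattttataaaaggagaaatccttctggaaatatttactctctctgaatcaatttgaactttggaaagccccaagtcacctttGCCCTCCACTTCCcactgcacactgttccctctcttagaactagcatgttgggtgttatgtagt
The shared run has 13 bases, against 7 to 9 for the other 9 pairs of the 5 promoters, and lies at bases 196 to 208 of the Ccl6 sequence and 237 to 249 of the Ccl9 sequence. Aligned end to end, the 2 sequences were identical over 56.7% of the promoter, and the 10 pairs ranged from 49.3% to 56.7%. AGGAAG, 1 letter form of the sites bound by ETS factors, was searched on either strand. It occurred 2 times in the Ccl6 sequence, 1 time in that of Ccrl2 and 0 times in the other 3. Of 32851 mouse promoters of the same length, 35.4% hold it. Shorter forms, such as the GGAA that the printed Ccl9 sequence holds, were not searched. The kappaB consensus, searched on both strands, occurred 1 time each in the Ccl9, Ccr1 and Ccrl2 sequences and 0 times in those of Ccl3 and Ccl6, with 8.5% of all promoters holding it. These are letter matches and not measured binding.

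Array medians lay between 5.44 and 5.53 on the log2 scale. Xist read 9.07 to 10.09 in females and 3.45 to 4.32 in males, and the Y-linked Kdm5d, Eif2s3y and Uty read 2.04 to 3.34 in females, so recorded sex matched all 16 arrays. The 7 footpad epidermis markers averaged 9.55 to 12.07 and the 8 skeletal muscle markers 8.35 to 10.84 over the arrays, all above the array medians. Values below are the deposited log2 signals, on which a difference of 1 is 2-fold. The sample titles name robust multi-array averaging and the processing notes MAS5, and which of them made the values was not settled here. A gene is said to rise or fall only where limma gave an adjusted p under 0.05 (Benjamini-Hochberg, over 19938 genes), and 2 groups are said not to overlap where all 4 arrays of one lie above all 4 of the other.

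Ccl3 rose in AIRmax footpads after pristane and was the member with the largest change. Its signals were 5.99, 6.22, 6.29 and 6.77 in AIRmax controls and 8.47, 8.42, 9.99 and 9.93 after pristane. In AIRmin footpads they were 5.81, 6.41, 5.75 and 5.83 in controls and 6.43, 6.42, 4.79 and 6.24 after pristane. All 4 AIRmax pristane arrays stood above the other 12, and the AIRmin groups overlapped. The difference within AIRmax was 2.89 ± 0.39 (SE), or 7.41-fold (95% interval 2.01 to 3.77 on the log2 scale, limma adjusted p = 0.0293). In AIRmin it was 0.02 ± 0.34 (interval -0.74 to 0.79, limma adjusted p = 0.987). Between pristane-treated lines Ccl3 was 3.23 ± 0.48 higher in AIRmax, or 9.41-fold (limma adjusted p = 0.0243), and between controls 0.37 ± 0.19 higher (limma adjusted p = 0.357). The test of the difference between the responses of the lines gave 2.87 ± 0.56 (interval 1.67 to 4.07) with a limma adjusted p of 0.0572, which missed the threshold.

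The calls of Ccl3 were lost in several fits that left out an array, and fewer of all genes were called in those fits. Within AIRmax 5, 4, 7, 25 and 18 genes were called without 105, 106, 107, 111 and 112, against 56 with all arrays. Between pristane-treated lines 76, 42, 14, 37 and 15 genes were called without 111, 112, 117, 119 and 120, against 271. Within AIRmax the limma adjusted p of Ccl3 was 0.109 without control array 105, 0.108 without 106 and 0.117 without 107. It was 0.0576 without pristane array 111 and 0.0676 without 112, while the difference stayed between 2.63 and 3.15. The call between pristane-treated lines was lost without array 111 (limma adjusted p = 0.0542), 112 (0.0656), 117 (0.0764), 119 (0.0553) or 120 (0.0657), with differences of 2.84 to 3.49 over the 8 arrays left out in turn.

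Ccl4 separated the same 4 arrays from the rest. It read 4.22, 4.34, 4.38 and 4.35 in AIRmax controls and 5.32, 5.41, 7.06 and 6.66 after pristane, against 4.67, 4.48, 4.20 and 4.29 in AIRmin controls and 4.64, 4.58, 4.41 and 4.45 in AIRmin pristane footpads. The AIRmax pristane arrays again lay above all others. The 3 remaining groups lay at 4.20 to 4.67, below the array medians, and a fold between low array signals is not an exact ratio of RNA. The AIRmax difference was 1.79 ± 0.37, or 3.46-fold (limma adjusted p = 0.0907), and that between pristane-treated lines 1.59 ± 0.36 (limma adjusted p = 0.0705). Neither passed the threshold in the 2-group fits of all 8 arrays without a covariate. The AIRmax difference passed with sex as a covariate. That between pristane-treated lines passed in 1 of 8 fits with an array left out (limma adjusted p = 0.0445). In AIRmin the difference was 0.11 ± 0.12 (limma adjusted p = 0.757).

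Within the AIRmax pristane group, Ccl3 and Ccl4 were highest in the 2 females. Ccl3 averaged 9.96 in females and 8.45 in males, against 6.53 and 6.11 in AIRmax controls, and Ccl4 averaged 6.86 and 5.37, against 4.37 and 4.28. Both sexes therefore stood above their controls. With 2 arrays per sex this split was not tested within the group, and across the 4 groups the difference of females from males was 0.18 ± 0.29 for Ccl3 and 0.27 ± 0.20 for Ccl4 (limma adjusted p = 1.0 for both). That shared term cannot show a split confined to 1 group. In AIRmin the direction was opposite for both genes. After pristane Ccl3 averaged 5.52 in AIRmin females and 6.43 in males, and Ccl4 4.43 and 4.61. In AIRmin controls they averaged 5.79 and 6.11, and 4.25 and 4.57. By the shared term 0 of the 7 members differed between the sexes, beside 21 of all genes (0.105%), and 0 had an unadjusted p under 0.05 in that limma fit.

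**Figure D1:**
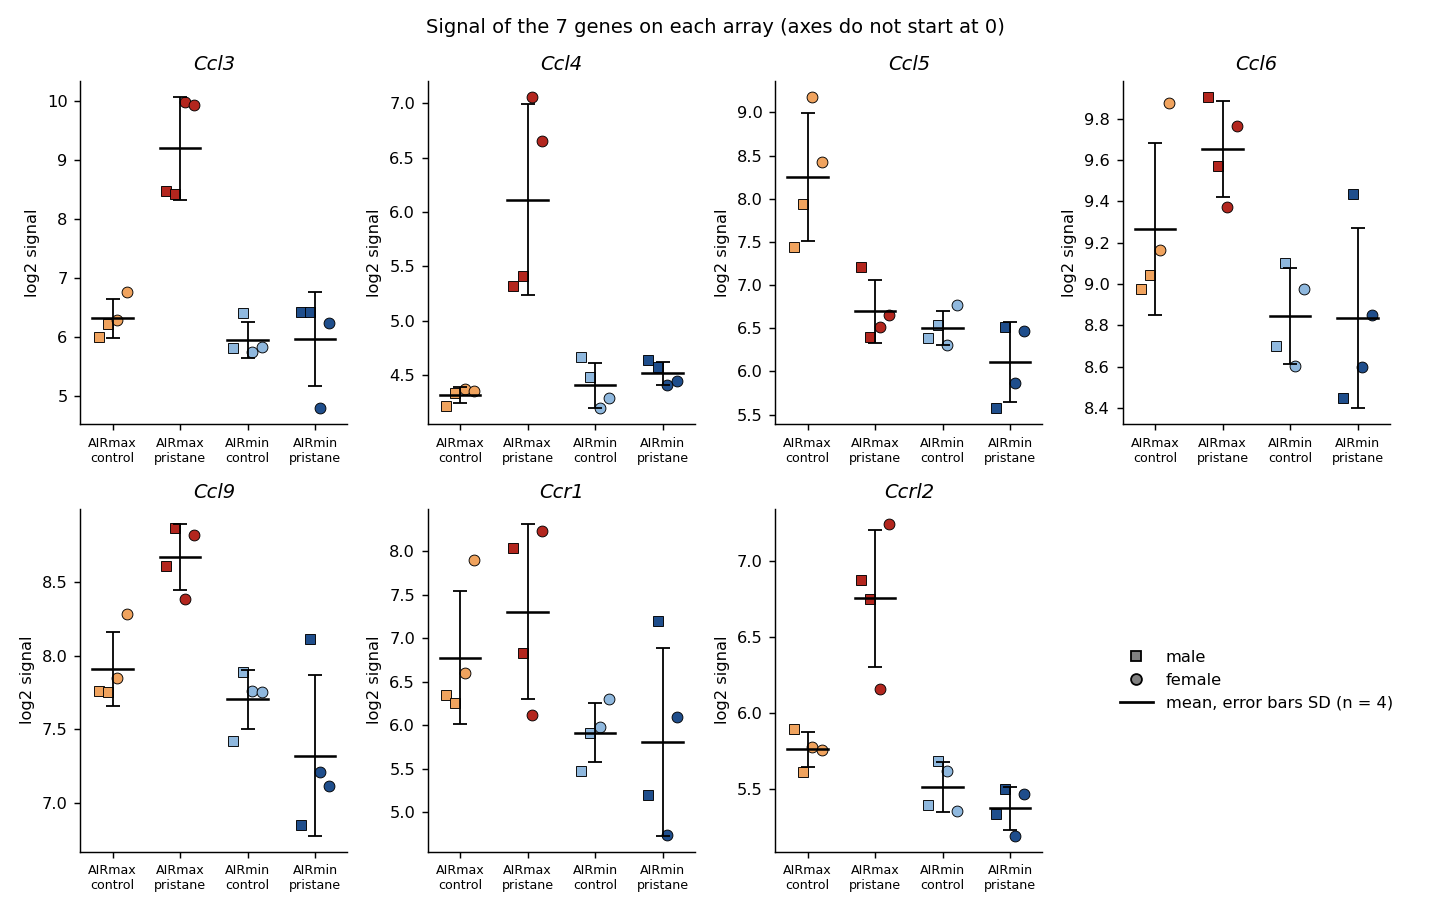
Log2 signal of each of the 7 genes (vertical axes, which do not start at 0) in the 4 groups, with squares for males, circles for females, and lines and bars for the mean and SD of 4 arrays. For Ccl3 and Ccl4 the 4 AIRmax pristane points lie above the 12 others with the females on top, whereas for Ccl5 the 4 AIRmax control points are highest.

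Ccl9, the macrophage inflammatory protein 1 gamma, was higher in pristane-treated AIRmax than in pristane-treated AIRmin footpads. The AIRmax arrays read 7.76, 7.75, 7.85 and 8.28 in controls and 8.60, 8.86, 8.38 and 8.82 after pristane. The AIRmin arrays read 7.42, 7.89, 7.76 and 7.75 in controls and 6.85, 8.11, 7.21 and 7.12 after pristane. The AIRmax pristane arrays did not overlap any other group. Between pristane-treated lines the difference was 1.34 ± 0.25, or 2.54-fold (interval 0.78 to 1.91, limma adjusted p = 0.0413), and within AIRmax it was 0.76 ± 0.16 (limma adjusted p = 0.0911). Within AIRmin it was -0.38 ± 0.24 (limma adjusted p = 0.572), and the difference between the responses was 1.14 ± 0.31 (limma adjusted p = 0.198). The call between pristane-treated lines held in 1 of 8 fits with an array left out, that without array 118, where the difference was 1.60 and the limma adjusted p 0.00654. Without array 109, 110, 111, 112, 117, 119 or 120 the adjusted p was 0.0722, 0.053, 0.0708, 0.11, 0.131, 0.0969 and 0.119, and with sex as a covariate 0.0581.

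Ccl6, its neighbour, had the smallest range of group means among the 7 members, from 8.83 in AIRmin pristane to 9.65 in AIRmax pristane footpads. AIRmax controls read 8.97, 9.04, 9.16 and 9.88 and AIRmax pristane arrays 9.91, 9.57, 9.37 and 9.76, against 8.70, 9.10, 8.60 and 8.98 and then 8.45, 9.44, 8.60 and 8.85 in AIRmin. In each of the 4 comparisons the groups overlapped. Between pristane-treated lines Ccl6 differed by 0.82 ± 0.21 (limma adjusted p = 0.0911), within AIRmax by 0.39 ± 0.21 (limma adjusted p = 0.423) and within AIRmin by -0.01 ± 0.21 (interval -0.48 to 0.45, limma adjusted p = 0.989). Its values moved with those of Ccl9 and Ccr1 from array to array, as described further on.

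Ccl5, a product of activated T and natural killer cells that recruits through several receptors, went the other way. Its signals were 7.44, 7.95, 9.18 and 8.43 in AIRmax controls and 7.21, 6.40, 6.51 and 6.66 after pristane. The AIRmin arrays gave 6.39, 6.54, 6.31 and 6.77 in controls and 5.57, 6.51, 5.87 and 6.47 after pristane. The 4 AIRmax control arrays lay above all 12 others, whereas AIRmax pristane arrays overlapped both AIRmin groups. The AIRmax difference was -1.55 ± 0.34 (interval -2.34 to -0.77, limma adjusted p = 0.11), and the difference between control lines was 1.75 ± 0.31, or 3.35-fold (limma adjusted p = 0.0936). Neither passed in the 2-group fits, and both passed when all 16 arrays were fitted together and in a SAM test. In AIRmin the difference was -0.40 ± 0.21 (limma adjusted p = 0.491), and the responses of the lines differed by -1.16 ± 0.44 (limma adjusted p = 0.476).

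Ccr1, the receptor shared by Ccl3, Ccl5, Ccl6 and Ccl9, varied widely within groups, with SDs of 0.34 to 1.08. It read 6.35, 6.25, 6.60 and 7.89 in AIRmax controls, 8.03, 6.83, 6.12 and 8.23 in AIRmax pristane footpads, 5.48, 5.91, 5.98 and 6.30 in AIRmin controls and 5.21, 7.19, 4.74 and 6.10 in AIRmin pristane footpads. The ranges of treated and control arrays overlapped in both lines. The AIRmax difference was 0.53 ± 0.52 (interval -0.65 to 1.70, limma adjusted p = 0.674), and the AIRmin difference -0.11 ± 0.45 (interval -1.12 to 0.90, limma adjusted p = 0.953). Between lines Ccr1 differed by 1.49 ± 0.60 after pristane (limma adjusted p = 0.223) and by 0.86 ± 0.34 in controls (limma adjusted p = 0.259). These intervals include a 2-fold fall within AIRmin and a 3-fold rise within AIRmax.

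Ccrl2 was higher in pristane-treated AIRmax than in pristane-treated AIRmin footpads. It read 5.90, 5.62, 5.78 and 5.76 in AIRmax controls and 6.88, 6.75, 6.16 and 7.24 after pristane, against 5.39, 5.69, 5.62 and 5.36 in AIRmin controls and 5.34, 5.50, 5.19 and 5.47 in AIRmin pristane footpads. All 4 AIRmax pristane arrays lay above the 12 others. Between pristane-treated lines the difference was 1.38 ± 0.21, or 2.60-fold (interval 0.92 to 1.85, limma adjusted p = 0.0243). Within AIRmax it was 0.99 ± 0.20 (limma adjusted p = 0.0905), within AIRmin -0.14 ± 0.11 (limma adjusted p = 0.672), and the difference between the responses was 1.13 ± 0.24 (limma adjusted p = 0.0729). The call between lines was lost without array 112 (limma adjusted p = 0.0504), 117 (0.0923), 119 (0.0687) or 120 (0.0657), where the difference was 1.22 to 1.41.

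Counted over the members, Ccl3 was the 1 of 7 that rose within AIRmax, where 28 of 19938 genes rose (0.14%) and 28 fell (0.14%). Ccl3, Ccl4, Ccl9 and Ccrl2 lay above their AIRmax controls without overlap, and Ccl5 below. Of all genes, 5.09% lay above and 4.3% below without overlap. Within AIRmin 0 of 7 passed and 0 of 7 separated, beside 0.0% of all genes called in each direction and 3.19% above and 4.32% below without overlap. Between pristane-treated lines 3 of 7 were called higher in AIRmax (Ccl3, Ccl9 and Ccrl2) and 0 lower, against 0.853% and 0.507% of all genes. Ccl3, Ccl4, Ccl9 and Ccrl2 did not overlap there, against 5.04% of all genes higher and 5.81% lower. Between control lines 0 of 7 were called, against 0.0502% higher and 0.0301% lower, and Ccl5 alone did not overlap, against 5.39% and 4.94%. For the difference between responses 0 of 7 were called, against 0.171% of all genes.

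The median member difference was 0.76 within AIRmax, where that of all genes was 0.03, and -0.11 within AIRmin, where that of all genes was 0.02. It was 1.38 between pristane-treated lines (all genes -0.01) and 0.37 between control lines (all genes -0.03). Unadjusted limma p-values under 0.05 were found for 5, 0, 7 and 3 of the 7 members in these 4 comparisons, and for 2879, 2469, 3757 and 3345 of all genes. Comparisons that use the same group share its arrays and are not independent of each other. The members were chosen with results of these arrays known, so their differences are no independent evidence of a direction.

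**Figure D2:**
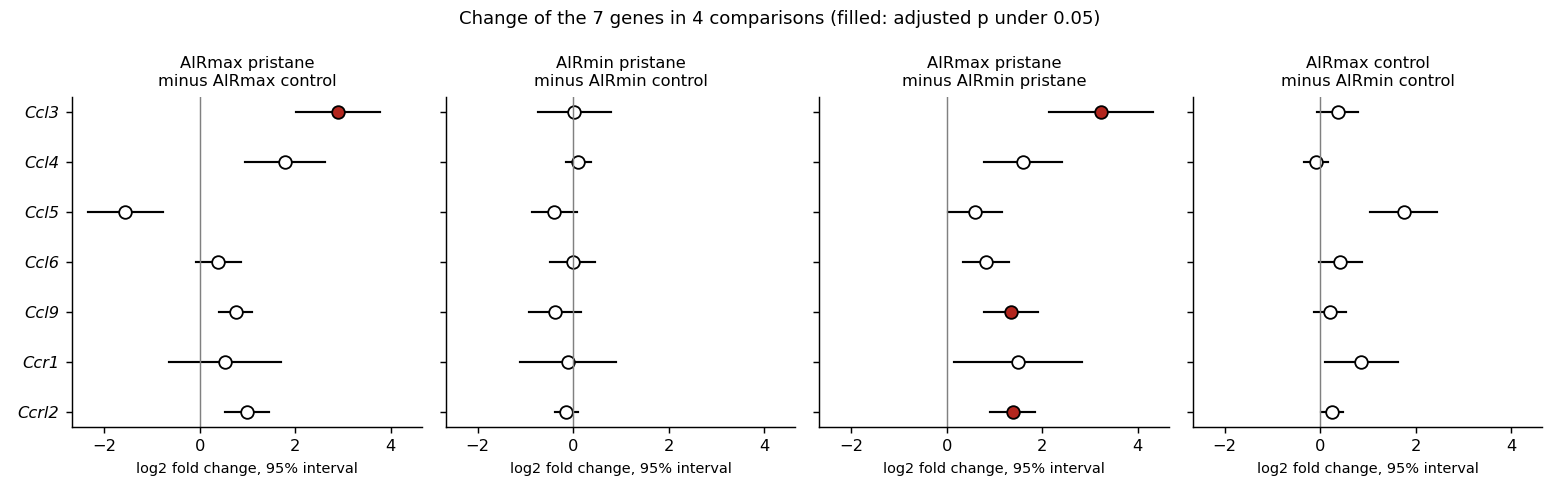
Log2 fold change with its 95% interval (horizontal axes) for the 7 genes in 4 comparisons, with filled points where the limma adjusted p was under 0.05. Ccl3 is filled within AIRmax, and Ccl3, Ccl9 and Ccrl2 between pristane-treated lines, while all 7 AIRmin intervals include 0.

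Among the remaining CC chemokines, 14 of 16 listed genes were measured. Of these, 4 were higher in pristane-treated AIRmax than AIRmin footpads and 0 lower, all 4 from the monocyte chemoattractant protein family. Ccl2 differed by 1.74 (limma adjusted p = 0.0321), Ccl7 by 2.09 (0.0243), Ccl8 by 2.44 (0.0108) and Ccl12 by 2.23 (0.0329). The responses of the lines differed for Ccl2 by 2.07 (limma adjusted p = 0.021) and for Ccl7 by 2.51 (0.0163), a test that 0 of the 7 members passed. For Ccl8 the responses differed by 0.99 (limma adjusted p = 0.619) and for Ccl12 by 1.94 (0.0993). Within AIRmax 0 of 14 passed, with Ccl2 at 1.83 (limma adjusted p = 0.0582) and Ccl7 at 1.93 (0.059). Within AIRmin and between controls 0 of 14 passed. Between controls Ccl8 was 1.44 higher in AIRmax without overlap (limma adjusted p = 0.167), and 5.39% of all genes lay higher there without overlap. Ccl2 differed there by -0.33 (limma adjusted p = 0.264), Ccl7 by -0.43 (0.299) and Ccl12 by 0.29 (0.349). The median difference of the 14 genes was 0.10 within AIRmax and -0.17 between pristane-treated lines. The calls of Ccl7 in the test of responses and of Ccl8 between pristane-treated lines held with each array left out in turn. That of Ccl2 between pristane-treated lines was lost without 109, 112, 117, 118, 119 or 120 (limma adjusted p = 0.0511 to 0.119), as was that of Ccl12 (0.0537 to 0.123, and 0.0519 with sex as a covariate), and that of Ccl7 without 112, 117, 119 or 120 (0.0638 to 0.0923). In the test of responses Ccl2 was lost without 105, 112, 115, 116, 117 or 119 (0.0505 to 0.0591).

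**Figure D3:**
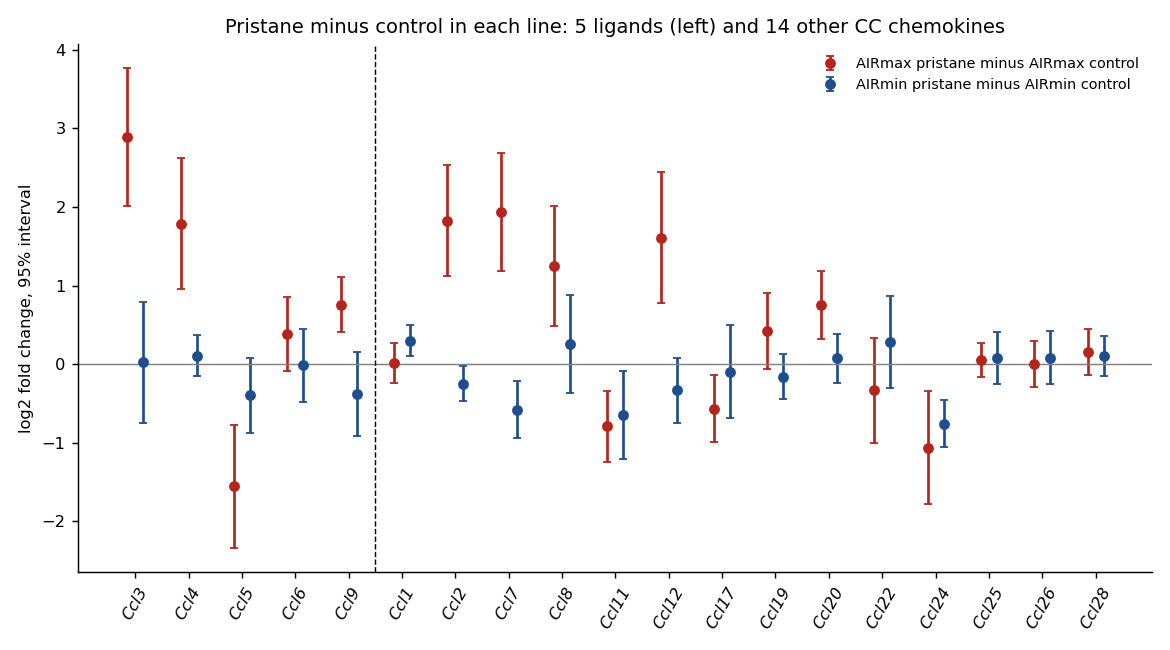
Log2 fold change from control to pristane with its 95% interval (vertical axis) in AIRmax (red) and AIRmin (blue) for the 5 ligands, left of the dashed line, and 14 other CC chemokines. Ccl3 has the highest AIRmax value at 2.89 and Ccl5 the lowest at -1.55, and Ccl2 and Ccl7 lie at 1.83 and 1.93 in AIRmax and below 0 in AIRmin.

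Receptors other than Ccr1 were tested as a list. Of 15 other CC and related chemokine receptors, 14 were measured and 0 were called in any of the 6 comparisons; with unadjusted limma p under 0.05 there were 3 within AIRmax, 5 within AIRmin, 4 between pristane-treated lines and 2 between controls. Ccr3, an eosinophil receptor that also binds Ccl5, read 5.51 to 6.76 in AIRmax controls, 4.78 to 6.30 in AIRmax pristane, 4.74 to 5.36 in AIRmin controls and 4.14 to 5.20 in AIRmin pristane footpads. Its control groups did not overlap, and the difference of 1.22 ± 0.25 had a limma adjusted p of 0.125. Of 22 genes of the signalling chain below these receptors, 19 were measured and 0 were called in any comparison. Their median difference was 0.86 between pristane-treated lines (all genes -0.01) and 0.57 between controls (all genes -0.03). With unadjusted limma p under 0.05 there were 1 within AIRmax, 1 within AIRmin, 7 between pristane-treated lines and 13 between controls. Of all 19938 genes, 2879, 2469, 3757 and 3345 had such a p in these comparisons.

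The chemerin system, to which Ccrl2 belongs, has 3 other genes, and all were measured. Gpr1, a second chemerin receptor, fell within AIRmax by 1.36 ± 0.16 on the log2 scale (limma adjusted p = 0.019) and was lower in pristane-treated AIRmax than AIRmin footpads, the difference being -1.08 ± 0.18 (limma adjusted p = 0.0321). Its AIRmax signals averaged 6.88 ± 0.27 (SD, n = 4) in controls and 5.51 ± 0.22 after pristane, and its AIRmin signals 7.05 ± 0.27 and 6.59 ± 0.34. Rarres2, which encodes chemerin, had lower values after pristane in both lines without overlap, with differences of -0.82 ± 0.20 in AIRmax (limma adjusted p = 0.14) and -0.91 ± 0.17 in AIRmin (0.0782). Cmklr1, the signalling receptor of chemerin, differed by -0.12 ± 0.16 and -0.47 ± 0.13 (limma adjusted p = 0.765 and 0.177). Ccrl2 was thus the 1 gene of the system with a higher mean after pristane in AIRmax, and 0 of the 4 passed the test of the difference between responses. The Gpr1 call within AIRmax was lost without array 106 (limma adjusted p = 0.0984), 107 (0.0794) or 112 (0.0555), and that between lines without 109, 111, 112, 117 or 120 (0.0542 to 0.107).

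Markers of several cell types moved along with the members, and in whole footpads a change in the number of cells of a type cannot be told apart from a change in RNA per cell. Of 12 macrophage and monocyte markers, 3 rose within AIRmax (Cd68, Cd14 and Msr1) and 5 were higher in pristane-treated AIRmax than AIRmin footpads, and the responses of the lines differed for 3. Within AIRmax 10 of the 12 differences were above 0, the exceptions being Mrc1 and Csf1r. Within AIRmin 2 of the 12 were above 0, 4 markers lay lower after pristane without overlap (4.32% of all genes), and 0 were called. A score, the mean log2 deviation of a list's genes from their means over the 16 arrays, was -0.15 to 0.44 in AIRmax controls, 0.47 to 1.13 in AIRmax pristane, -0.41 to 0.00 in AIRmin controls and -1.09 to -0.04 in AIRmin pristane footpads for these markers. The AIRmax pristane scores thus lay above all others, as did Ccl3, Ccl4, Ccl9 and Ccrl2. Of 7 osteoclast markers, 3 were higher in pristane-treated AIRmax than AIRmin footpads (Ctsk, Dcstamp and Atp6v0d2), with scores of 0.26 to 1.12 in AIRmax pristane and -0.04 to 0.42 in AIRmax control footpads. The part of these cells in the differences of the members was not tested.

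Neutrophil markers followed another order. Of 11 neutrophil and granulocyte precursor markers 0 were called in any comparison. However, 6 lay higher without overlap in AIRmax than in AIRmin controls, against 5.39% of all genes. The score ranged from 0.30 to 1.88 in AIRmax controls and from -0.31 to 1.94 in AIRmax pristane footpads. In AIRmin it ranged from -2.68 to 0.14 in controls and from -2.08 to 1.15 in pristane footpads. The 11 T and natural killer cell markers had 0 calls, their mean signal lying between 4.40 and 5.58 over the arrays. Their score was 0.06 to 0.72 in AIRmax controls, -0.23 to 0.24 in AIRmax pristane, -0.30 to 0.09 in AIRmin controls and -0.46 to 0.04 in AIRmin pristane footpads, so AIRmax controls were highest on average, as for Ccl5. Tissue markers differed as well. All 8 skeletal muscle markers and all 5 adipocyte markers measured had differences below 0 within AIRmax, 0 of them called. Within AIRmin all 5 adipocyte differences were also below 0, whereas 7 of the 8 muscle differences were above 0, again with 0 called. Between pristane-treated lines 1 muscle marker, Mb, was lower in AIRmax. Mast cell (6 of 6 measured), footpad epidermis (7 of 7) and bone and cartilage (4 of 5) markers had 0 calls in the 4 group comparisons. Their part in the values of the members was not tested either.

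**Figure D4:**
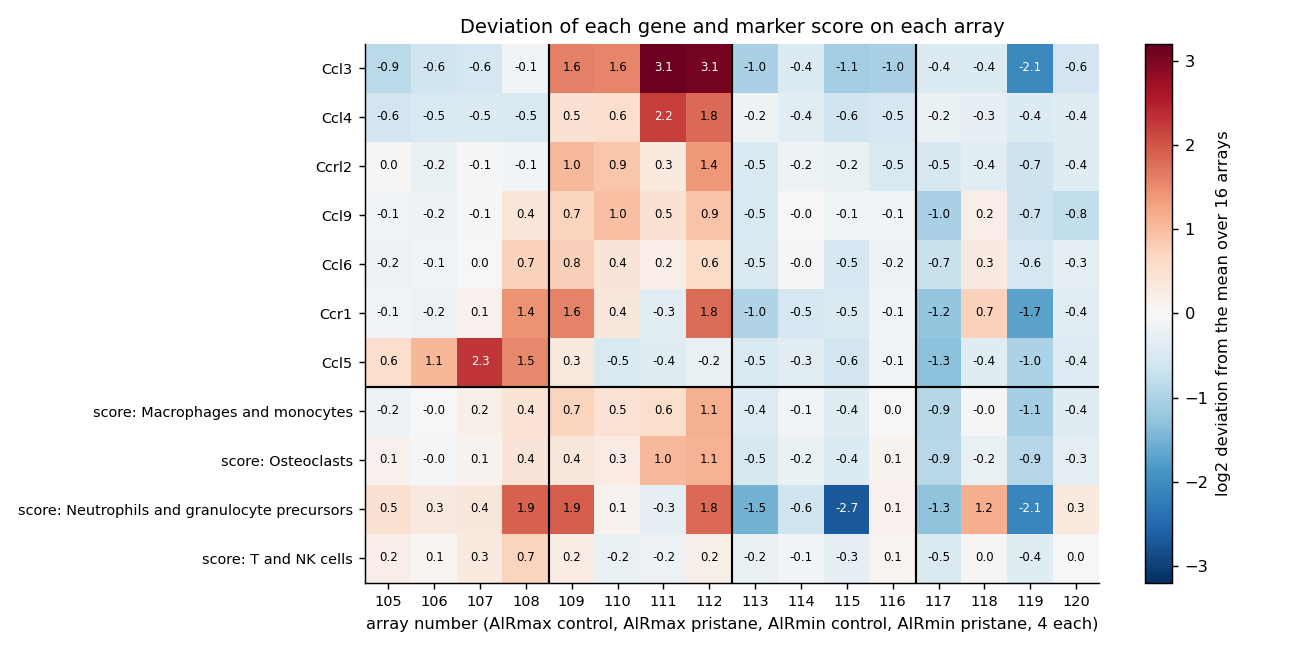
Log2 deviation of each gene and of 4 marker scores from their means over 16 arrays (colour, with the value printed in each cell) for arrays 105 to 120, with black lines between the 4 groups. Ccl3 and Ccl4 reach 3.1 and 2.2 on array 111, where Ccr1 and the neutrophil score are both at -0.3, and Ccl5 is highest on array 107 of the AIRmax controls.

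Array by array the members fell into different patterns, described here by Pearson's r over the 16 arrays and by r after each group's mean was subtracted. The arrays share their groups, and these values are descriptions without a test. Ccl3 and Ccl4 correlated at 0.93, and at 0.74 within groups, where the higher values of both in the AIRmax pristane females were not subtracted. Ccl6 correlated with Ccr1 at 0.92 (0.87 within groups) and with Ccl9 at 0.89 (0.82), and Ccl9 with Ccr1 at 0.80 (0.73). Between Ccl3 or Ccl4 and Ccl6, Ccl9 or Ccr1 the 6 values within groups ran from -0.19 (Ccl4 with Ccr1) to 0.31 (Ccl3 with Ccr1), while those over all arrays ran from 0.35 to 0.77. Ccl3 and Ccl5 correlated at -0.01.

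The markers that the members followed differed from gene to gene. Of the T and natural killer cell markers, Nkg7 varied most within each group, with SDs of 0.87 to 1.96, against 0.07 to 0.18 for Cd3e. The share of this 1 gene in the correlations with that score was not tested. Within groups, Ccr1 correlated at 0.88 with the macrophage score, 0.86 with the neutrophil score and 0.88 with the T and natural killer cell score, and Ccl6 at 0.83, 0.84 and 0.87. For Ccl9 the same values were 0.70, 0.56 and 0.57, for Ccl3 0.59, 0.35 and 0.28, and for Ccl4 0.16, -0.10 and -0.09. The osteoclast score correlated within groups at 0.72 with Ccl3, 0.58 with Ccl4, 0.49 with Ccr1, 0.47 with Ccl6 and 0.38 with Ccl9, and over all arrays at 0.84, 0.73, 0.73, 0.79 and 0.82. Sex was not subtracted. In AIRmax pristane footpads this score was 0.35 and 0.26 in males and 1.04 and 1.12 in females, which were also highest for Ccl3 and Ccl4. The SD of Ccl4 was 0.88 in that group and 0.07 to 0.21 in the others. Ccl5 correlated with the T and natural killer cell score at 0.82 over all arrays and 0.65 within groups.

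**Figure D5:**
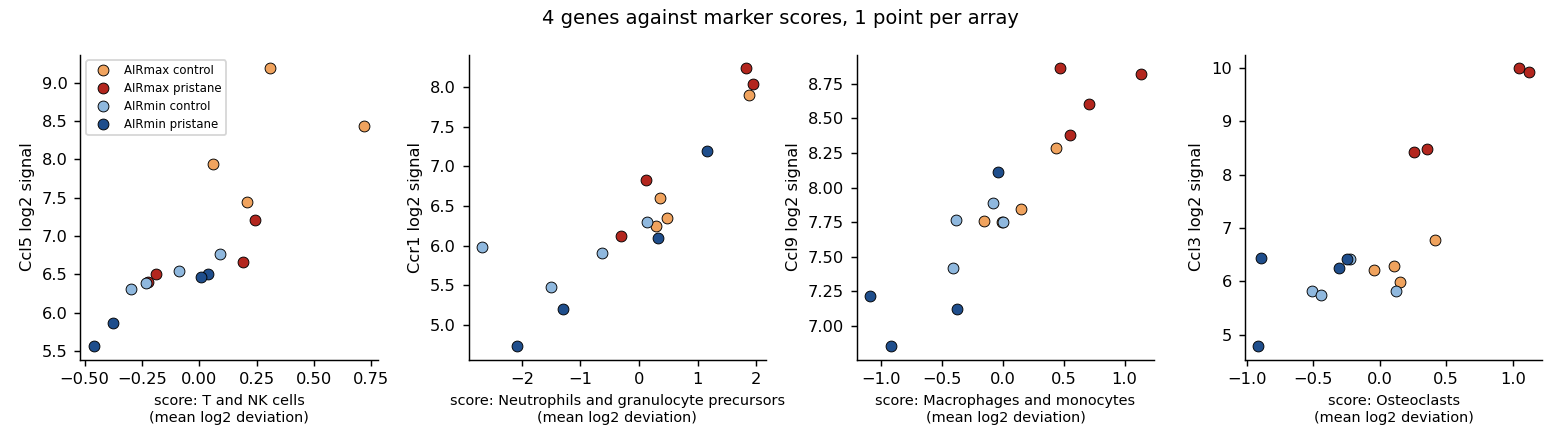
Log2 signal of Ccl5, Ccr1, Ccl9 and Ccl3 (vertical axes) against the score of 1 marker list each (horizontal axes, mean log2 deviation), with 1 point per array coloured by group. Ccr1 is higher where the neutrophil score is higher, with AIRmin control array 115, at a score of -2.68, lying off, whereas the high Ccl3 points are the 4 AIRmax pristane arrays.

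Of 9969 genes searched, those with the profiles most like each member were also of different kinds. Nearest to Ccl3 were Cxcl13, the B cell chemoattractant (r = 0.97), Pip5k1c (0.94) and Slc13a3 (0.94). Nearest to Ccl4 were Slc13a3 (r = 0.96), Cxcl13 (0.95) and Tnfrsf11a (0.94), which encodes the receptor RANK of osteoclast precursors. For Ccl5 they were the interferon-induced guanylate-binding protein genes Gbp9 (0.89) and Gbp4 (0.88) and the antigen-processing gene H2-DMa (0.88). For Ccl6 they were Fgr (0.97), a myeloid Src family kinase, Arhgap9 (0.96) and Spi1 (0.96), the myeloid transcription factor. For Ccl9 they were Ms4a6d (0.95), Plod3 (0.93) and Nt5m (0.93), and for Ccr1 C5ar1 (0.98), the receptor of complement C5a, Pxn (0.98) and Zyx (0.98). For Ccrl2 they were Mmp3 (0.94), which encodes the matrix protease stromelysin, its inhibitor Timp1 (0.93) and Slc39a14 (0.93). Timp1 followed Ccrl2 less closely within groups, at 0.37, than C5ar1 followed Ccr1, at 0.98. By rank over the 16 arrays these pairs ranged more widely, with Spearman's rho from 0.47 (Ccl4 with Slc13a3) to 0.98 (Ccr1 with C5ar1). It was 0.60 for Ccl3 with Slc13a3, 0.61 for Ccrl2 with Mmp3 and 0.65 for Ccrl2 with Slc39a14.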

How the data were processed

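Footpad RNA of 16 mice was hybridised to Affymetrix Mouse Gene 1.0 ST arrays, 1 per sample. The authors deposited log2 signals per probe set; the titles name robust multi-array averaging (RMA) at gene level and the submitters' processing notes name MAS5, and the signals were used as deposited. Genome build and versions are not given in the sources used here. Of 35556 probe sets, 21789 name 1 gene, and the brightest per gene was kept (19938 genes). Groups were compared with limma 3.58.1 (lmFit, eBayes) in R 4.3.3 on the 8 arrays concerned, and the difference between responses and the sex term on all 16, with Benjamini-Hochberg adjustment at 0.05. The scripts were tested on simulated data. Array signals carry no read depth, and 4 arrays per group limit the precision.

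The members and lists were chosen with earlier results of these data known. Besides the 7 members, genes were named if they belong to 4 pathway lists and passed in any of 6 comparisons, if they are Ccr3, Rarres2 or Cmklr1, or if they were among the 3 most alike to a member over the arrays (of genes above the median signal). Marker genes came from 9 lists. Alternatives were 1 fit of all arrays, sex as a covariate, the mean of probe sets, brighter genes only, standardized or quantile-normalized arrays, a trended robust prior, SAM (false discovery rate 0.05) and leaving out each array.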

Additional observations from a re-analysis of the deposited data

Results flagged for a closer look

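Of 28 sets of 4 arrays, 1 per member and group, 2 had an array far from its fellows, and chance flags about 1 in 20. Both concern Ccl3 in AIRmin footpads. Control array 114 read 6.41, against 5.75 to 5.83 on the other 3, and pristane array 119 read 4.79, against 6.24 to 6.43. Without array 119 the AIRmin difference of Ccl3 was 0.42 instead of 0.02, and the difference between pristane-treated lines 2.84 instead of 3.23.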

How the results depend on the processing

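The number of members called depended on the fit. The number of all genes called moved as well and is given beside it. Within AIRmax 1 member was called in the 2-group limma fit, beside 56 of 19938 genes. With all 16 arrays in 1 fit it was 4 (Ccl3, Ccl4, Ccl5 and Ccrl2), beside 338 genes. With sex as a covariate it was 2 (Ccl3 and Ccl4), beside 109 genes. By SAM it was 5 (Ccl3, Ccl4, Ccl5, Ccl9 and Ccrl2), beside 754 genes. With an array left out it was 0 to 2. It was 0 without 105, 106, 107 or 112, where 5, 4, 7 and 18 genes were called. Between pristane-treated lines 3 members were called, beside 271 genes, against 5 with all 16 arrays in 1 fit, beside 1519 genes. With an array left out it was 0 to 4 members. It was 0 without 112, 117, 119 or 120, where 42, 14, 37 and 15 genes were called. Between controls 0 members were called, beside 16 genes. It was 1 with all 16 arrays (35 genes) and 1 by SAM (280 genes), Ccl5 in both. For the difference between responses 0 members were called, beside 34 genes. It was 1 among brighter genes only (50 of 9969 genes), where Ccl4 and Ccrl2 were not tested. It was also 1 on standardized arrays (59 genes), Ccl3 in both cases. With an array left out it was 0 to 2 members. It was 2 without 109 or 118 (120 and 71 genes) and 1 without 110 or 111 (40 and 34 genes). The number of members called stayed 0 within AIRmin and between the sexes under every alternative run. Calls among all genes ranged there from 0 to 416 and from 8 to 86. Near 0 some directions turned with an array left out. Within AIRmin Ccl3 ranged from -0.13 to 0.42, Ccl6 from -0.21 to 0.12 (0.0059 on standardized and 0.0109 on quantile-normalized arrays) and Ccr1 from -0.57 to 0.25. Rarres2 ranged from -0.28 to 0.0073 between pristane-treated lines and from -0.0215 to 0.27 between responses, and Cmklr1 from -0.18 to 0.0091 between controls. Females minus males ranged from -0.11 to 0.11 for Ccl6, -0.10 to 0.13 for Ccl9, -0.11 to 0.35 for Ccr1 and -0.15 to 0.0432 for Ccrl2. The cause was not tested. No paired analysis was possible because the array numbers are unique to each sample. Low signals, as of Ccl4, limit what a fold means.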
